A study of Homo sapiens with 4 samples.

Results

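Cohesin and condensin are the ring-shaped complexes that hold and shape chromosomes, and the RNA of 10 of their subunits was examined here out of 57992 genes in the count table. The genes were taken by symbol from a list of named subunits: SMC1A, SMC3, RAD21, STAG1 and STAG2 for cohesin, and SMC2, SMC4, NCAPD2, NCAPG and NCAPH for condensin. All 10 were found as 1 row each, and all 10 passed the filter on low counts that left 15193 genes for testing. The RNA came from MOLM13, a human cell line of acute myeloid leukaemia, in a derivative that the series describes as resistant to venetoclax, an inhibitor of BCL2. Doxycycline was given in every library. It induced a control short hairpin RNA in 2 libraries (shCtrl 1 and 2, genotype labelled WT) and a hairpin that targets PRMT9 in the other 2 (shPRMT9 1 and 2). PRMT9 is an enzyme that methylates arginines of proteins, the splicing factor SF3B2 among them. The labels give neither the hairpin sequences nor the length of induction. They also do not say whether the libraries of a group are separate cultures. Every SD, interval and p-value thus measures only the spread between these libraries, and the edgeR intervals and p-values draw on that of other genes too.

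Each complex is built on a pair of SMC proteins, long coiled coils that join at a hinge and bind ATP at their heads, closed by a further protein called a kleisin. In cohesin the pair is SMC1A and SMC3, the kleisin is RAD21, and STAG1 or STAG2 binds the kleisin as alternative subunits. Cohesin holds sister chromatids together from S phase to anaphase and extrudes chromatin loops in interphase, and STAG2, RAD21, SMC1A and SMC3 are recurrently mutated in myeloid leukaemia. In condensin the pair is SMC2 and SMC4. Condensin I adds the kleisin NCAPH with NCAPD2 and NCAPG, whereas condensin II adds NCAPH2, NCAPD3 and NCAPG2, and both compact chromosomes for mitosis.

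PRMT9 RNA checked the labels. It had 398 and 406 counts in the shCtrl libraries and 81 and 78 counts in the shPRMT9 libraries, which left 17.9% of the control level (95% confidence interval 15% to 21.4%; log2 fold change -2.48, SE 0.12, edgeR adjusted p = 1.13e-11). Total counts per library ranged from 28592902 to 33845172. Among 10 myeloid markers, 8 rose, MPO fell and CD68 was too low to test (4 to 10 counts in a library). Over all tested genes, 33.4% were called higher and 34.5% lower (edgeR adjusted p below 0.05). The list had a summed level of 1516 to 1525 CPM (library-scaled read counts) in the controls and 2206 to 2207 CPM after knockdown. The largest rises in CPM were those of LYZ (607 to 942 CPM) and PTPRC (263 to 470 CPM). The part of the rise of these markers in the results that follow was not tested. The 20 markers of T, B, erythroid, epithelial, and stromal and endothelial cells summed to 1.16 to 1.85 CPM in a library, none of them had more than 19 counts, and all 4 erythroid markers, HBB among them, were at 0.

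Of the 10 subunits, 9 fell after PRMT9 knockdown and 1, STAG2, was not called. The median log2 fold change was -0.58 over the 10 subunits and 0.001 over all 15193 genes tested. By the same rule (edgeR adjusted p below 0.05), 34.5% of all tested genes were called lower, 33.4% were called higher and 68.0% changed in either direction. These shares cover genes of all levels, whereas the subunits had a higher mean CPM than 75.3% (STAG1) to 99.1% (SMC4) of tested genes. No share over genes of like level was computed. All 5 condensin subunits fell (median -0.87), as did 4 of 5 cohesin subunits (median -0.58). NCAPH and SMC2 fell by 2-fold or more, as did 3.76% of all tested genes. In 9 subunits both shPRMT9 libraries lay below both shCtrl libraries in CPM, which held for 41.7% of tested genes, while 83.3% of tested genes had groups that did not overlap in either direction. In bulk RNA, fewer cells in the phases of the cell cycle that express a gene and less RNA of it per cell cannot be told apart.

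**Figure D1:**
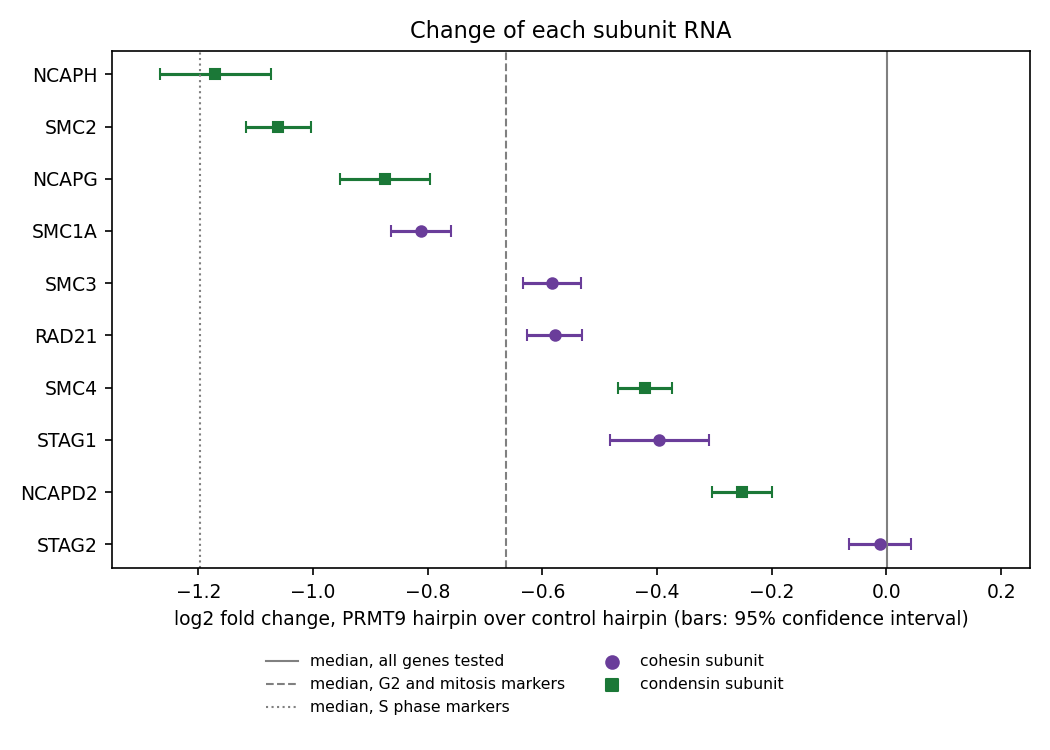
Log2 fold change of each subunit RNA, PRMT9 hairpin over control hairpin, from edgeR on 2 libraries per group, with 95% confidence intervals. Circles are cohesin subunits, squares condensin subunits, and vertical lines give the median of all tested genes (0.001), of 15 G2 and mitosis markers (-0.66) and of 15 S phase markers (-1.20). The intervals of 9 subunits lie below 0, and that of STAG2 spans it.

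The SMC pair of condensin fell unequally. SMC2 (chromosome 9, 104094260 to 104141417, plus strand of GRCh38) was measured at 239 and 247 CPM in the shCtrl libraries and at 118 and 115 CPM in the shPRMT9 libraries. Both knockdown libraries were at less than 50% of the control level, with a log2 fold change of -1.06 (SE 0.03, edgeR adjusted p = 3.38e-15). SMC4 (chromosome 3, 160399274 to 160434962, plus strand) was at 835 and 878 CPM in the controls and at 637 and 643 CPM after knockdown. Its groups also lay apart, but 74.7% of the control level remained against 47.9% for SMC2 (SMC4 log2 fold change -0.42, SE 0.02, edgeR adjusted p = 3.29e-11).

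NCAPH, the kleisin of condensin I that closes the SMC2 and SMC4 ring, had the largest fall of the 10. The gene (chromosome 2, 96335787 to 96373845, plus strand) was at 78.9 and 85.3 CPM in the controls and at 37.1 and 35.8 CPM after knockdown, a log2 fold change of -1.17 (SE 0.05, edgeR adjusted p = 6.20e-13). A lower log2 fold change was seen in 2.36% of tested genes. For SMC2, NCAPG and SMC1A that share was 3.37%, 6.17% and 7.55%, and for SMC3 and RAD21 it was 14.3% and 14.4%. It was 22.1% for SMC4, 23.3% for STAG1, 32.6% for NCAPD2 and 49.2% for STAG2. NCAPG and NCAPD2 are the large HEAT-repeat subunits that bind NCAPH and DNA. NCAPG (chromosome 4, 17810902 to 17844862, plus strand) went from 122.5 and 116 CPM to 63.5 and 66.5 CPM (-0.87, SE 0.04, edgeR adjusted p = 1.97e-12). NCAPD2 (chromosome 12, 6493356 to 6531955, plus strand) had the smallest fall of the called subunits, from 272 and 280.3 CPM to 235 and 229 CPM (-0.25, SE 0.02, edgeR adjusted p = 9.96e-08). The share of the control level that remained was 44.4% for NCAPH, 54.6% for NCAPG and 84% for NCAPD2, and the 95% confidence intervals of the 3 log2 fold changes did not overlap.

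In cohesin the core ring fell and the alternative subunits differed. SMC1A (chromosome X, 53374149 to 53422728, minus strand) went from 285 and 291 CPM in the controls to 167 and 162 CPM after knockdown, the largest fall of a cohesin subunit (-0.81, SE 0.02, edgeR adjusted p = 3.17e-14). Its partner SMC3 (chromosome 10, 110567691 to 110604636, plus strand) went from 309 and 318 CPM to 210.0 and 209 CPM (-0.58, SE 0.02, edgeR adjusted p = 1.14e-12). RAD21, the kleisin that separase cuts at anaphase (chromosome 8, 116845935 to 116874866, minus strand), went from 581 and 592 CPM to 385 and 401 CPM (-0.58, SE 0.02, edgeR adjusted p = 6.50e-13). SMC3 and RAD21 kept 66.8% and 67% of the control level, and SMC1A 56.9%.

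STAG1 and STAG2 are paralogues that bind RAD21 and recruit regulators of cohesin, in complexes with partly separate roles. STAG1 (chromosome 3, 136336233 to 136752403, minus strand) was at 61.9 and 64.6 CPM in the controls and at 47.3 and 48.7 CPM after knockdown (-0.40, SE 0.04, edgeR adjusted p = 1.73e-07). STAG2 (chromosome X, 123960212 to 124422664, plus strand) was at 211 and 215 CPM in the controls and at 207 and 215 CPM after knockdown, so that its groups overlapped. Its log2 fold change was -0.01 (95% confidence interval -0.07 to 0.04, edgeR adjusted p = 0.714), and with upper-quartile scaling it was called higher at 0.08 (adjusted p = 0.0111).

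**Figure D2:**
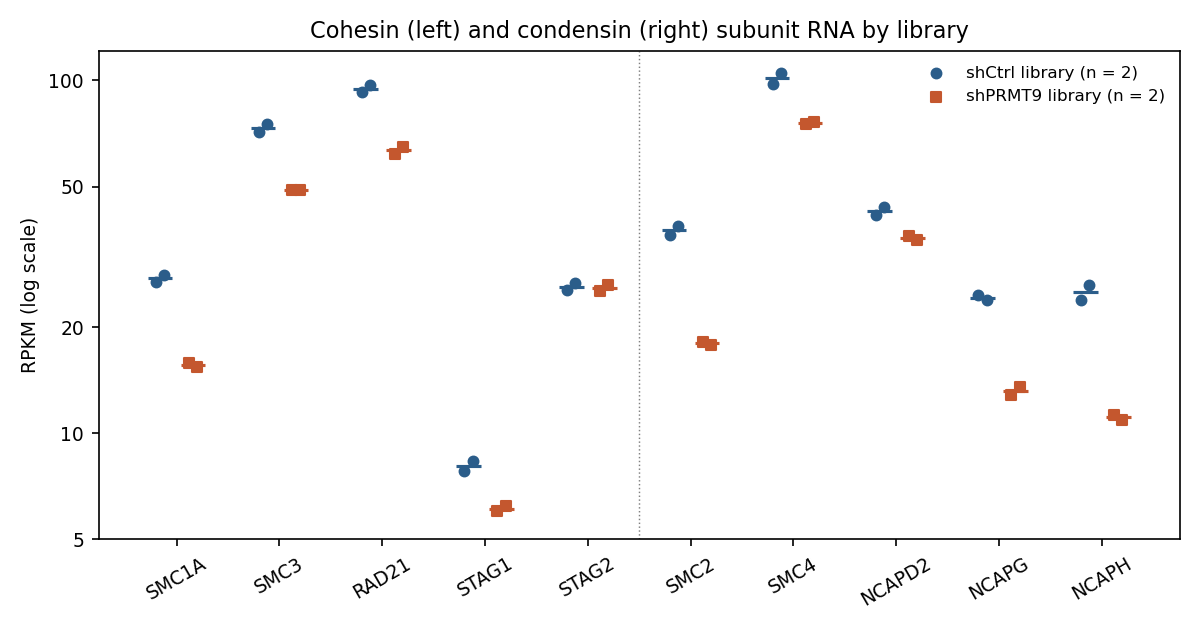
RPKM of each subunit gene (read counts per exon length and library size, log scale) in the 2 shCtrl libraries (circles) and the 2 shPRMT9 libraries (squares), with short lines at the group means. STAG2 overlaps between groups at 25.3 to 26.6 RPKM, and every other gene is lower in both shPRMT9 libraries.

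Levels can be compared between genes only per length, for which the deposited RPKM were used. In the controls the order from the highest mean was SMC4 (101 ± 5.33 RPKM, SD, n = 2 libraries), RAD21 (94.8 ± 2.87), SMC3 (73.4 ± 2.87), NCAPD2 (42.6 ± 1.62), SMC2 (37.6 ± 1.47), SMC1A (27.5 ± 0.871), STAG2 (26.0 ± 0.834), NCAPH (25.1 ± 1.82), NCAPG (24.2 ± 0.576) and STAG1 (8.07 ± 0.374). STAG2 and NCAPH overlapped between libraries, as did NCAPH and NCAPG. After knockdown the first 4 places were unchanged, STAG2 (25.8 ± 0.707 RPKM) stood above SMC2 (18.0 ± 0.214) and SMC1A (15.6 ± 0.288), and NCAPG (13.2 ± 0.452) stood above NCAPH (11.1 ± 0.256). The exon length behind the RPKM is for RAD21 1.65 times and for SMC4 1.55 times the length of the principal transcript in GENCODE release 29. Per kilobase of the principal transcript, an alternative chosen after seeing the data, SMC4 and RAD21 were level in the controls (157 ± 8.24 and 157 ± 4.74), and in the knockdown SMC4 was higher (117 ± 0.991 against 105 ± 3.24). By that length STAG2 stood above SMC1A in the controls already (35.2 ± 1.13 against 29.5 ± 0.934), while SMC2 (40.6 ± 1.59) stood above STAG2 there and below it after knockdown (19.4 ± 0.232 against 34.9 ± 0.957). Summed over its 5 subunits, the RNA of cohesin went from 229.9 ± 7.82 to 159.8 ± 2.36 RPKM and that of condensin from 231 ± 9.66 to 154 ± 0.0532 RPKM, or 69.5% and 66.5% of the control level. These sums weigh the most abundant RNAs most, SMC4 in condensin and RAD21 and SMC3 in cohesin, and are not levels of the complexes.

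Ratios between subunits within a library do not depend on its scaling. Of 10 ratios of RPKM examined, 9 did not overlap between groups, beside 83.3% of single tested genes in CPM. The share over other pairs of genes was not computed. With 2 libraries against 2 an exact two-sided permutation test cannot give a p below 0.333 (0.370 after Benjamini-Hochberg adjustment over the 10), so no ratio could pass that test, and no other test was run on the ratios. SMC2 per SMC4 was 0.374 and 0.367 in the controls and 0.241 and 0.235 after knockdown. NCAPD2 per NCAPH was 1.74 and 1.66 in the controls and 3.21 and 3.23 after knockdown, and NCAPG per NCAPH went from 1.04 and 0.903 to 1.14 and 1.24. Within condensin, the RNA of NCAPH and SMC2 was thus lower relative to that of NCAPD2 and SMC4, respectively, in both knockdown libraries than in both controls.

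STAG1 per STAG2 was 0.307 and 0.313 in the controls and 0.238 and 0.237 after knockdown. SMC1A per SMC3 went from 0.377 and 0.373 to 0.323 and 0.316. RAD21 per SMC3 was the ratio that overlapped, at 1.30 and 1.28 in the controls and 1.26 and 1.33 after knockdown. SMC4 per SMC3, a ratio between the complexes, went from 1.37 and 1.39 to 1.53 and 1.56.

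**Figure D3:**
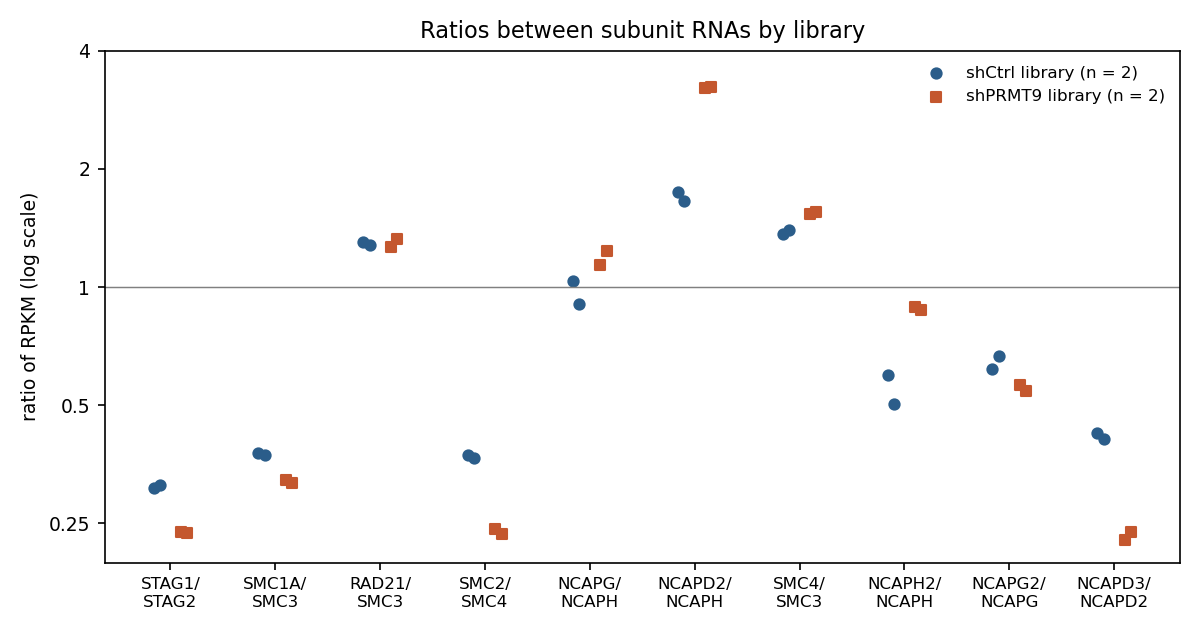
Ratio of RPKM between 2 genes (log scale) in each shCtrl library (circles) and shPRMT9 library (squares) for 10 pairs, with a line at 1. RAD21/SMC3 overlaps between groups near 1.3, NCAPD2/NCAPH is 3.21 and 3.23 in the shPRMT9 libraries against 1.74 and 1.66 in the controls, and NCAPD3/NCAPD2 is lower in both shPRMT9 libraries.

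The promoters of the subunit genes were searched for words of cell cycle elements. Many genes that are expressed in G2 and mitosis carry a cell cycle homology region (CHR), which the MuvB core of the DREAM and B-MYB complexes binds, whereas genes of G1/S carry E2F sites. RefSeq promoter windows, from 250 bases before to 50 bases after each annotated gene start (build GRCh38.p14), were matched by symbol for 9 of the 10 genes, all but RAD21, and searched on both strands. The CHR word TTTGAA was present for 4 of 5 condensin genes and 1 of 4 cohesin genes, and in 15.2% of all 35116 windows and for 1357 of the 9691 tested genes that have one. The remaining condensin gene, NCAPH, held the CHR variant TTTAAA, which was in 12.2% of windows and 11.1% of tested genes. The share of tested genes with either word was not computed. The stretches with the CHR word or, for NCAPH, the variant are printed 5′ to 3′ on the strand of the gene. The word is in capitals, and TTCAAA is TTTGAA read on the other strand.
NCAPG: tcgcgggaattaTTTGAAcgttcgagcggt
SMC2: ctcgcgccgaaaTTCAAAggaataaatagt
SMC4: gccgcactttttTTCAAAttagtggatccc
NCAPD2: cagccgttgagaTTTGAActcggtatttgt
NCAPH: cgacgcgcgcgaTTTAAAaccagctcagga
SMC3: cagaattctagaTTCAAAagaaatccacca

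These stretches lie at chr4:17810932-17810961 for NCAPG, chr9:104094294-104094323 for SMC2, chr3:160399563-160399592 for SMC4, chr12:6493945-6493974 for NCAPD2, chr2:96335786-96335815 for NCAPH and chr10:110567532-110567561 for SMC3, all on the plus strand. Counted from the annotated start of the window that holds it, the word began at base -35 in NCAPG, -3 in SMC2, -75 in SMC4, -145 in NCAPD2, 33 in NCAPH and -151 in SMC3. SMC2 and SMC4 have 2 windows each, and the other window did not hold the word. The log2 fold changes of these 6 genes ranged from -0.25 for NCAPD2 to -1.17 for NCAPH. An E2F-like word (either of the words TTCCCGC and also TTCGCGC, or with G as the third letter TTGCCGC and also TTGGCGC) was found for 3 of 4 cohesin genes (SMC1A, STAG1 and STAG2) and 2 of 5 condensin genes (SMC4 and NCAPG), against 24.6% of tested genes. The CCAAT box word CCAAT was found for STAG1, STAG2, NCAPD2 and NCAPH, and for 43.2% of tested genes. None of these words overlapped another. A match describes these letters in this window and is not a measurement of binding.

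**Figure D4:**
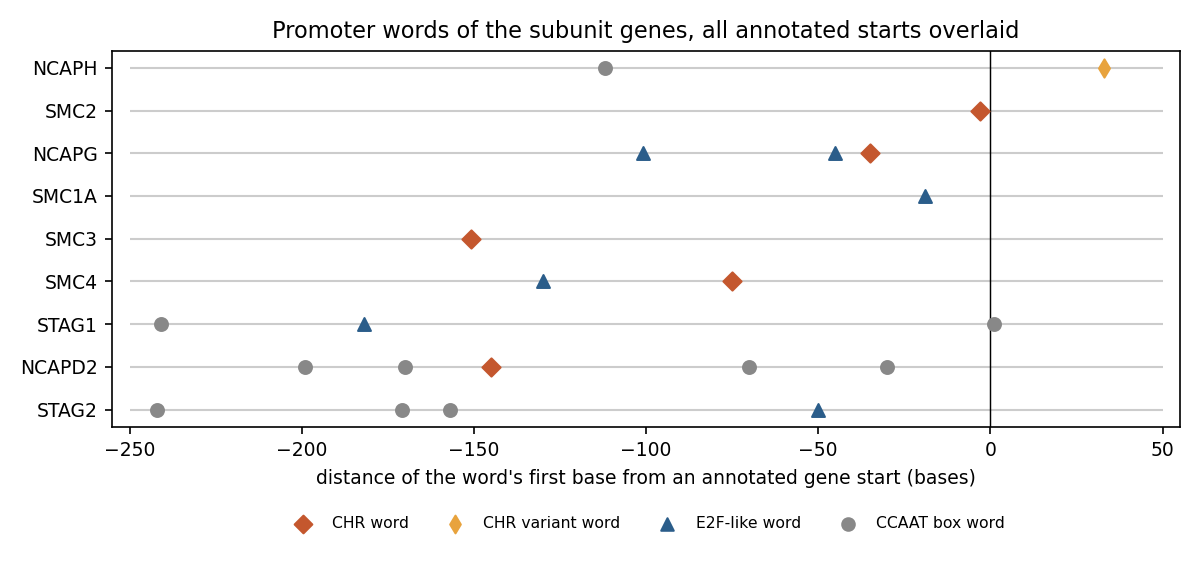
Position of CHR (diamonds), CHR variant (thin diamond), E2F-like (triangles) and CCAAT box words (circles) from 250 bases before to 50 bases after the annotated starts of 9 subunit genes, ordered from the largest fall (NCAPH, top) to STAG2 (bottom). CHR words are on the lines of SMC2, SMC4, NCAPD2, NCAPG and SMC3, and the variant is on that of NCAPH.

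Condensin II and its inhibitor were measured beside condensin I. NCAPD3, NCAPG2 and NCAPH2, the subunits specific to condensin II, fell to 46.7%, 46.8% and 71.6% of their control levels, and MCPH1, which holds condensin II inactive before mitosis, was at -0.10 (edgeR adjusted p = 0.0685). The corresponding subunits of the condensins did not move alike. NCAPD3 per NCAPD2 in RPKM went from 0.426 and 0.411 in the controls to 0.227 and 0.238 after knockdown. NCAPG2 per NCAPG went from 0.620 and 0.668 to 0.562 and 0.543. For the kleisins the direction was the opposite, with NCAPH2 per NCAPH at 0.596 and 0.502 in the controls and at 0.892 and 0.877 after knockdown.

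Among 20 factors that load, release, acetylate or protect cohesin, 16 fell, 2 rose and 2 were not called, with a median log2 fold change of -0.67. By the same rule, 34.5% of all tested genes fell and 33.4% rose. The largest falls were in HASPIN (GSG2 in the count table), a histone H3 kinase of mitotic centromeres (-1.72), and ESCO2, the acetyltransferase that establishes cohesion in S phase (-1.56). ESCO1, the acetyltransferase active throughout interphase, rose from 35.4 to 41.8 CPM (0.24, edgeR adjusted p = 0.000245). The 2 subunits of the cohesin loader differed in direction, with NIPBL falling by 0.24 and MAU2 rising from 96.7 to 115 CPM (0.25, edgeR adjusted p = 1.29e-06).

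The release factor WAPL fell by 0.41 and its partners PDS5A and PDS5B by 0.32 and 0.70. CDCA5 (sororin), which opposes WAPL until mitosis, fell by 0.97. Genes that couple cohesion to the replication fork fell as well: WDHD1 by 1.16, DSCC1 by 1.24, DDX11 by 0.96 and CHTF18 by 0.83, while CHTF8 was at 0.06 (edgeR adjusted p = 0.0944). CTCF, the DNA-binding protein at which cohesin loops stop, went from 133 to 76.8 CPM (-0.79). SGO1 and SGO2, which protect centromeric cohesin, fell by 0.72 and 0.63, and separase (ESPL1) and securin (PTTG1) by 0.42 and 0.49. HDAC8, which removes the acetyl mark from SMC3, was at -0.07 (edgeR adjusted p = 0.361).

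The germline cohesin subunits went the other way at low levels. REC8, the meiotic kleisin that takes the place of RAD21, had 75 and 55 counts in the controls and 345 and 368 counts after knockdown, a rise from 2.21 to 10.99 CPM (log2 fold change 2.31, SE 0.13, edgeR adjusted p = 1.01e-10). STAG3, the meiotic counterpart of STAG1 and STAG2, had 12 and 17 counts in the controls and 38 and 32 counts after knockdown (1.12, edgeR adjusted p = 0.00936), a call that was lost in 7 of 19 alternatives, without shCtrl 1 and without shPRMT9 1 among them. SMC1B had 0 to 2 counts and RAD21L1 0 counts in every library, and neither was tested. Per length, REC8 was below RAD21 after knockdown, at 2.86 ± 0.0535 against 63.4 ± 1.96 RPKM.

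The SMC5/6 complex, the third SMC complex, acts in DNA repair and restrains viral and extrachromosomal DNA. Of 9 tested genes of the complex and its relatives 7 fell, 1 rose and 1 was not called (median -0.37). Over all tested genes 34.5% fell and 33.4% rose. SMC5 and SMC6 fell by 0.34 and 0.57, NSMCE4A and SLF1 by 0.61 each, and NSMCE1 rose by 0.22, while NSMCE2 was at -0.05 (edgeR adjusted p = 0.558). None of the 7 falls passed a test against a fold of 1.5. SMCHD1, a non-canonical SMC protein of the inactive X chromosome, fell by 0.55.

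Genes of the mitotic chromosome scaffold and periphery fell in 8 of 9 cases (median -0.74), beside 34.5% of all tested genes. TOP2A, the topoisomerase that shares the chromosome axis with condensin, went from 689.5 to 413 CPM (-0.74), and its paralogue TOP2B, which is expressed in resting cells too, was at -0.02 (edgeR adjusted p = 0.412). KIF4A, a chromokinesin that works with condensin, fell by 0.57, and MKI67, which coats mitotic chromosomes, by 0.97. Aurora B (AURKB), which promotes condensin loading, and its partners INCENP, BIRC5 and CDCA8 fell by 0.66, 0.74, 1.01 and 0.96.

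**Figure D5:**
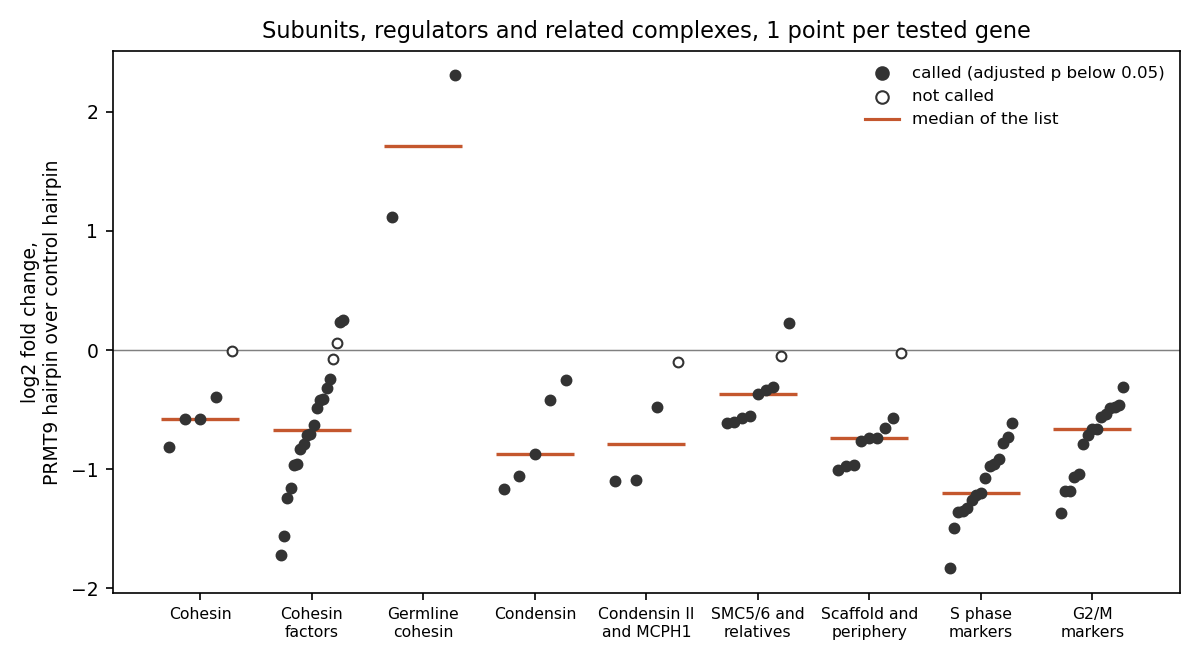
Log2 fold change of each tested gene (1 point per gene, PRMT9 hairpin over control hairpin) in 9 lists, with filled points for called genes and a line at the median. The lists lie mostly below 0 except the 2 tested germline cohesin genes, REC8 (2.31) and STAG3 (1.12).

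Markers of the cell cycle moved with these groups, while 34.5% of all tested genes were called lower by the same rule. All 15 S phase markers fell, with a median of -1.20 and a range from -0.61 (MCM5) to -1.83 (GINS2), and their summed level was 3180 and 3199 CPM in the controls and 1580 and 1588 CPM after knockdown. All 15 G2 and mitosis markers fell as well, with a median of -0.66 and a range from -0.31 (AURKA) to -1.37 (CDC20), and summed levels of 2228 and 2263 CPM in the controls and 1291 and 1299 CPM after knockdown. The changes of NCAPH, SMC2, NCAPG and SMC1A lay within the ranges of both lists, those of SMC3, RAD21, SMC4 and STAG1 within that of the G2 and mitosis markers only, and NCAPD2 and STAG2 were closer to 0 than any marker in these lists. The part of the cell cycle in the falls of cohesin and condensin RNA was not tested.

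Some counts are uncertain because genes overlap. NCAPG shares 33.1% of its exon bases with LCORL on the opposite strand in GENCODE release 29, STAG1 21.2% with PCCB, SMC4 18.5% with TRIM59 and 7.18% with IFT80, RAD21 8.37% with UTP23, and NCAPD2 7.49% with MRPL51. The use of strand in counting is not given in the sources used here, so reads in these stretches cannot be told apart. The log2 fold changes of these neighbours, taken from the annotation, were -0.21 for LCORL, -0.15 for PCCB, -0.41 for TRIM59, -0.07 for IFT80 (edgeR adjusted p = 0.53), -0.18 for UTP23 and -0.32 for MRPL51. RAD21 also shares 5.83% of its exon bases with RAD21-AS1 on the opposite strand. For SMC3, 7.93% of 50-base windows of its transcripts also occur in another gene, and for STAG2 3.09%. Besides the neighbours above, NCAPG shares windows with NCAPGP1 and NCAPGP2, and NCAPD2 with NCAPD2P1. SMC1A, SMC2 and NCAPH had no shared window.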

How the data were processed

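The authors deposited raw read counts per gene for 4 poly(A) RNA libraries, with gene coordinates on GRCh38, and RPKM of the same genes. The deposited RPKM divide each count by the exon length and the depth of its library, the latter adjusted by a factor (0.979 to 1.01) equal to the TMM factor of all 57992 rows. Per the submitters' processing notes, the tools included Trimmomatic 0.39, SAMtools 1.10 and STAR 2.7.2a. Which annotation was used, what counted the reads and whether strand was used is not given in the sources used here.

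Genes were kept with filterByExpr (minimum count 10), which left 99.9% of the counts. The test was edgeR 4.0.16's quasi-likelihood test in R 4.3.3, with TMM scaling, a group term, robust estimation and Benjamini-Hochberg adjustment over all 15193 genes tested. It was also run on simulated counts in which far fewer genes changed than were called here, so that run did not check the setting of these data. A gene was called at an adjusted p below 0.05 and is said to have risen or fallen only then. The SE is the log2 fold change divided by the root of the F statistic. With 2 residual degrees of freedom per gene, the test borrows the spread of other genes. Its intervals and p-values therefore do not rest on the libraries of a single gene alone. CPM are scaled by the TMM factors, with SDs over 2 libraries. Counts of the 2 libraries of a group differed by more than counting noise (chi-square per degree of freedom 2.91 in shCtrl and 1.60 in shPRMT9). The coefficient of variation between libraries beyond counting error was 0.0259.

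The 10 subunits, the lists of related genes and the markers were chosen with earlier results of these data known. Genes were named by rule: PRMT9, the 10 subunits, any tested gene of the related lists and, of the cell cycle markers, the largest and the smallest change. MPO, CD68, LYZ, PTPRC, HBB, untested germline genes, the overlapping neighbours and the genes that share windows were named outside that rule. Lists are described by counts and medians, with no set test. The alternatives were other scalings and filters, DESeq2 1.42.0, limma 3.58.1 with voom and on log2(RPKM + 1) and log2(RPKM + 0.1), and a replicate block. Further ones were no robust estimation, a cutoff at an adjusted p below 0.01 and a test against a fold of 1.5. The last were each library left out, and an earlier edgeR estimation chosen after seeing the data.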

Additional observations from a re-analysis of the deposited data

How the results depend on the processing

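The 9 falls among the 10 subunits were called in 18 of 19 alternatives. The exception was the test against a fold of 1.5, which called 4 (SMC1A, SMC2, NCAPG and NCAPH), with 41 falls and 1 rise among the related genes (64 and 5 in the main test) and 2884 changes over all genes, 1205 lower and 1679 higher (10327, 5249 and 5078 in the main test). STAG2 was not called in 18 of 19 alternatives, and its log2 fold change was above 0 with upper-quartile scaling (0.0772, the 1 alternative in which a subunit was called higher), library totals only (0.0031), a filter at 1 CPM (0.0206), without shCtrl replicate 2 (0.0194) and without shPRMT9 replicate 1 (0.0131). In log2(RPKM + 1) without a filter on low values 3 related genes rose. Upper-quartile scaling moved the median of all genes to 0.09 and that of the subunits from -0.58 to -0.49. The deviations of the libraries numbered 1 had r = -0.031 across 15193 genes, which are not independent. The labels do not say that the numbers pair libraries, and this correlation alone cannot exclude it. With the replicate block 9 subunits fell, 0 rose and 10307 genes changed. Leaving out 1 library at a time, where the lone library is assumed to vary like the other group, gave 9 falls each time and moved STAG2 between -0.0361 and 0.0194. The rise of STAG3, which had 12 to 38 counts in a library, was lost in 7 alternatives. Under the filter at 1 CPM in 2 libraries STAG3 was not tested, since only shPRMT9 1 reached that level (1.23 CPM). The cause in the other alternatives was not tested.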

Other observations

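SMC4 is the host of 2 microRNA genes, MIR15B and MIR16-2, which lie in its introns on the same strand in GENCODE release 29. The mature products belong to a family known to repress BCL2, the target of venetoclax. Both rows were listed at 0 counts in all 4 libraries, and poly(A) libraries are not made to hold mature microRNAs, so the fall of the host RNA (SMC4 log2 fold change -0.42) gives no measure of them. Their levels were not measured here.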
